A study of Homo sapiens with 6 samples.

Results

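The genes described here are 32 human genes of the endoplasmic reticulum (ER): its chaperones and folding enzymes, the machinery of ER-associated degradation (ERAD), the protein translocation channel, coat proteins of export vesicles, and the sensors of the unfolded protein response (UPR). They were taken by symbol, as every probe of the deposited table whose only gene symbol is one of the 32 names. This gave 39 of 47322 probes, which stand for 31 of 20046 genes. SEC31A has no probe under that symbol and was not analysed here. The study set KG1a cells exposed for 24 h to 2 µM of 7l (a code name that the labels do not explain) against control cells, with 3 Illumina bead arrays in each group. KG1a, an established line from acute myeloid leukaemia, resembles early blood progenitors and carries CD34. All cells grew in RPMI medium with heat-inactivated fetal bovine serum, and the labels name neither a vehicle nor a culture time for the controls.

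The ER folds proteins that enter it through the SEC61 channel. When unfolded proteins accumulate, ER stress is sensed by ATF6, IRE1 (encoded by ERN1) and PERK (encoded by EIF2AK3). ATF6 and the transcription factor made from XBP1 mRNA after IRE1 has spliced it raise genes of chaperones and of ERAD, which draws misfolded proteins back into the cytosol for the proteasome. PERK slows translation and leads to the factor ATF4.

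Values are log2 intensities, 1 probe a gene (the brightest over all arrays), and changes are 7l minus control. Genes were tested with limma if that probe had a mean over log2 1.76, the middle of all probes, and called at an adjusted p under 0.05 over all 12334 genes tested. Of the 31 genes with a probe, 28 passed the filter. PDIA3, SEL1L and ERN1 did not. Pearson correlations across probes with a mean above 6, which are not independent replicates, were 0.993 to 0.995 within the groups and 0.982 to 0.983 between them. Values at or under log2 2.55 are called background here. Under that level lay 95% of the means of probes for taste and olfactory receptors and keratin-associated proteins. The 5 fixed markers of blood progenitors (CD34, PTPRC, SPN, MYB, CD44) were all above background, with a summed intensity of 6909 to 7319 in control and 6107 to 6342 in 7l arrays, and CD34 itself lay at 11.44 to 11.48 in control and 11.14 to 11.33 in 7l arrays. Of the 5 markers, MYB fell (-0.50, limma adjusted p = 0.0442). CD34 was lower without overlap but did not pass (-0.23, limma adjusted p = 0.185), and PTPRC, SPN and CD44 overlapped. The part of the 5 markers in the results was not tested. The 4 mature myeloid markers (CD14, ITGAM, FCGR3B, LYZ) summed to 38.7 to 62.3 in control and 54.7 to 78.9 in 7l arrays. Among them FCGR3B was 1.51-fold higher without overlap (limma adjusted p = 0.0876) and CD14 1.68-fold higher with overlap (limma adjusted p = 0.231). ITGAM went the other way, 2.87-fold lower with overlap (limma adjusted p = 0.409), and LYZ was 1.11-fold higher with overlap (limma adjusted p = 0.918). Their part was not tested either. Summed intensities reached at most 31.0 for 4 epithelial, 38.3 for 4 fibroblast and 13.8 for the 2 erythroid markers with a probe. CDH1 and HBA1 lay at the floor on all arrays. The titles number 3 arrays in each group, whereas the description labels give replicate 1 to every control and replicate 2 to every 7l array. Separate cultures are not stated, so the p-values reflect the spread between arrays that may be technical repeats. Precision is limited by having 3 arrays a group.

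The promoter element to which ATF6 binds in the presence of NF-Y, the ER stress response element (ERSE: CCAAT, then 9 bases of any kind, then CCACG), was found in promoters of several ER chaperone genes, so its copies among these genes are shown before the values. Other UPR targets, such as DNAJB9 and EDEM1, had none in the windows searched. Windows from 250 bases before to 50 bases after the annotated start came from RefSeq (GRCh38.p14) and were found for 28 of the 32 genes, with no window for DERL1, DERL3, PDIA3 and SEC24D. Both strands were searched for exact matches, so near matches, as may lie in the HSPA5 promoter or in genes listed without an element, were not counted. An ERSE was found in the windows of 7 genes, and its shorter form ERSE-II (ATTGG, then 1 base of any kind, then CCACG) in those of HYOU1 and SDF2L1. Counted by window, 9 of the 38 windows of the 28 genes hold an ERSE and 2 an ERSE-II. Of all 35116 promoter windows, 0.0769% hold an ERSE and 0.0541% an ERSE-II. The end shared by both motifs, CCACG, is common on its own, in 38.1% of all windows. It lies in 28 of the 38 windows, which belong to 21 of the 28 genes. Another UPR motif, TGACGTG, was found in 2 of the 38 windows, of HYOU1 and SEC61A1, and in 1.97% of all windows. A match is a description of the letters, not a shown binding site. In the lines that follow, each element is written 5′ to 3′ on the strand that carries the motif, with its fixed bases in capitals.
HSPA5, chr9:125241391-125241409, minus strand: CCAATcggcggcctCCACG
HSP90B1, chr12:103930216-103930234, plus strand: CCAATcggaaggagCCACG
HSP90B1, chr12:103930321-103930339, minus strand: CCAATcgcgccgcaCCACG
CRELD2, chr22:49918554-49918572, minus strand: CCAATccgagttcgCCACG
CALR, chr19:12938384-12938402, minus strand: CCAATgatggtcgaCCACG
CANX, chr5:179698778-179698796, plus strand: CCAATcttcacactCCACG
PDIA6, chr2:10812853-10812871, minus strand: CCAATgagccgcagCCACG
XBP1, chr22:28800603-28800621, minus strand: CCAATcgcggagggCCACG
HYOU1, chr11:119057274-119057284, plus strand: ATTGGaCCACG
HYOU1, chr11:119057380-119057390, plus strand: ATTGGaCCACG
SDF2L1, chr22:21642114-21642124, minus strand: ATTGGtCCACG

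The element of HSPA5 lies 66 to 48 bases before the annotated start. It is shown in capitals in the 250 bases before that start (chr9:125241344-125241593, minus strand, GRCh38.p14), because HSPA5 is the gene by which ER stress is most often read.
HSPA5 promoter: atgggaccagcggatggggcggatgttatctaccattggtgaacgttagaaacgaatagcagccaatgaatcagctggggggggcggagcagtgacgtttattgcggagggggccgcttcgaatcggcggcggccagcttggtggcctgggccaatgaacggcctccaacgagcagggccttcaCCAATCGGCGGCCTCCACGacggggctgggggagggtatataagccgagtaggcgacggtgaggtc

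With 7l, no ER gene passed the test. The 9 genes with an element had log2 changes from -0.29 (HSPA5) to 0.10 (HSP90B1). In 10 of the 28 tested genes, 5 of them of ERAD, every treated array lay above every control array, beside 15.1% of all genes tested. Their changes ran from 0.19 (DNAJB11) to 1.04 (OS9) and did not pass. Of the 28 tested genes 0 were called higher and 0 lower by limma with the default prior, beside 1.22% of all genes tested called higher, 1.16% called lower and 2.38% in either direction, and 0 of 34 tested probes were called when each probe was tested on its own, beside 0.566% of all probes. At an unadjusted p under 0.05, 8 of the 28 were higher and 1 was lower, beside 20.5% of all genes in either direction. The median change of the 28 was 0.07, beside 0.01 over all genes tested, and their median size of change was 0.14, beside 0.21. Half-widths of the 95% intervals had a median of 0.26, beside 0.34, so the sizes of change were not measured with like precision. The 95% intervals of 26 of the 28 genes ended below a log2 change of 1, so a doubling lay outside them. The exceptions were OS9 and EIF2AK3.

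The call depended on the prior of the fit. With a trended and robust prior, under which the same values borrow more from genes of like brightness, limma called 6 of the 28 higher (SEC61A1, OS9, EDEM2, EDEM1, P4HB and DERL1) and HSPA5 lower. The background is then 7.21% of all genes higher and 6.59% lower. The groups did not overlap in 10 genes that were higher and 1 that was lower with 7l, which is 39.3% of the 28, beside 28.9% of all genes tested. Of these 11 genes 7 are those called under the trended prior, and the others are DNAJB9, DNAJB11, SYVN1 and SEC24D.

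**Figure D1:**
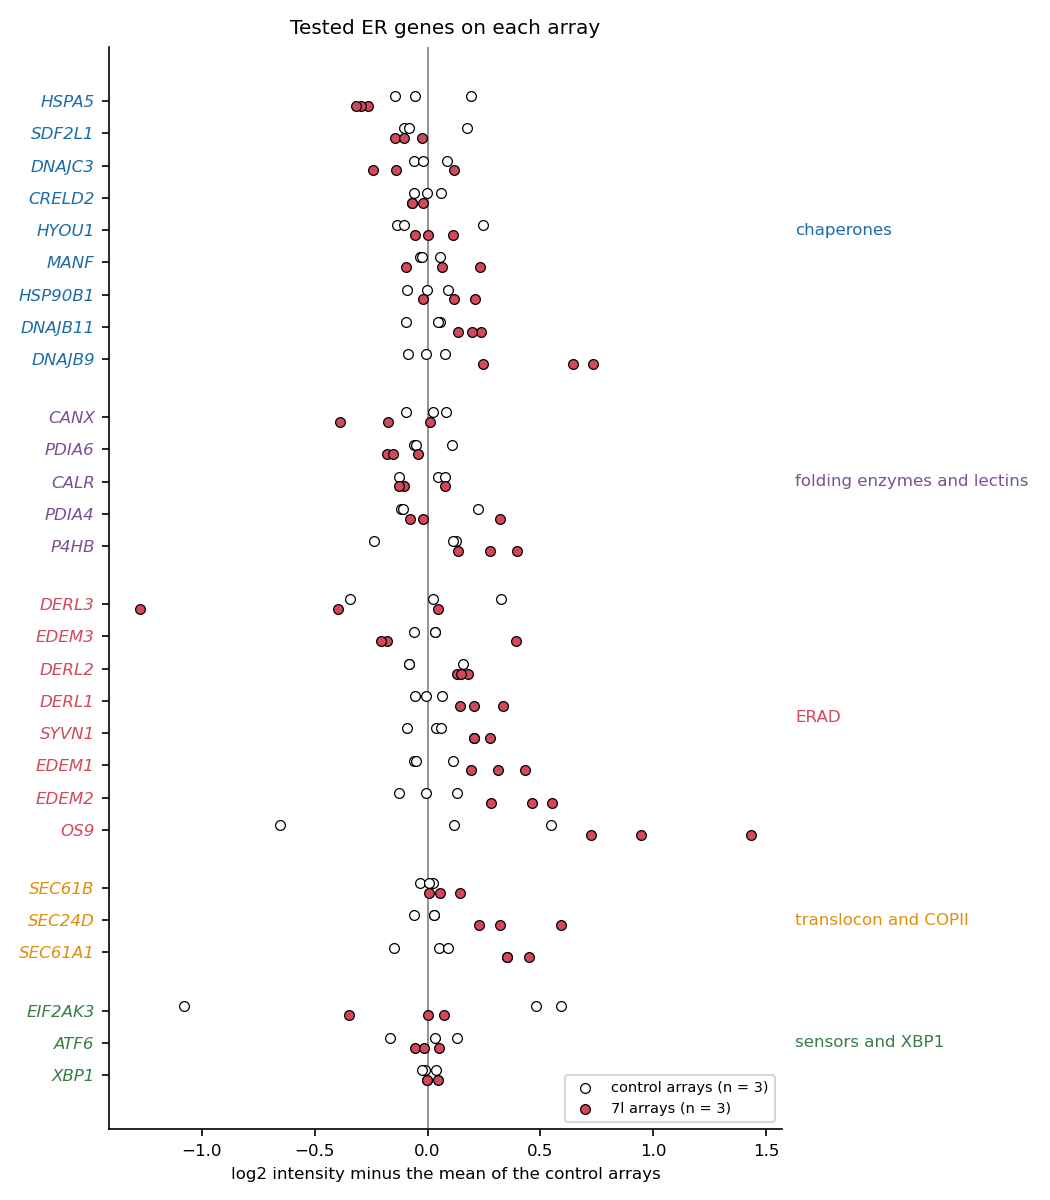
The 28 tested ER genes are shown in rows by role, with the log2 intensity of each array minus the mean of the control arrays on the horizontal axis; open points are the 3 control and red points the 3 7l arrays. The red points lie right of all open points in 10 genes, among them 5 of ERAD, and left of them in HSPA5.

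HSPA5 encodes BiP, the HSP70 chaperone of the ER lumen, which also holds the UPR sensors inactive. It measured 7.50, 7.41 and 7.75 in control and 7.29, 7.26 and 7.24 in 7l arrays. All treated arrays were below all control arrays, by a narrow gap, with means of 7.56 ± 0.18 and 7.26 ± 0.02 (SD, n = 3 each). The change of -0.29 ± 0.11 (SE; 95% interval -0.57 to -0.02) did not pass (limma adjusted p = 0.218, or adjusted p = 0.0378 with the trended prior). Without control replicate 3, its highest control array, the change was -0.20. HSP90B1, encoding the ER form of HSP90 (GRP94), measured 10.86, 10.77 and 10.95 in control and 11.07, 10.84 and 10.98 in 7l arrays, and the groups overlapped.

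DNAJB9 encodes ERdj4, a J-domain protein that delivers BiP to ERAD substrates and to IRE1. It measured 4.82, 4.74 and 4.66 in control and 4.99, 5.39 and 5.48 in 7l arrays, so all treated arrays were higher. The change was 0.54 ± 0.15 (SE; 1.46-fold, 95% interval 0.16 to 0.92) and did not pass (limma adjusted p = 0.137, and adjusted p = 0.0822 with the trended prior). DNAJB11, another J-domain partner of BiP, measured 10.77, 10.62 and 10.76 in control and 10.95, 10.85 and 10.91 in 7l arrays. The groups did not overlap, and the change of 0.19 ± 0.08 (SE) did not pass (limma adjusted p = 0.258).

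The other 5 chaperone genes had overlapping groups. DNAJC3, encoding the co-chaperone P58IPK, changed by -0.09 ± 0.12 (SE), and SDF2L1, a partner of DNAJB11, by -0.09 ± 0.10. CRELD2 and MANF, which encode small proteins secreted from stressed cells, changed by -0.05 ± 0.07 and 0.07 ± 0.10. HYOU1 encodes GRP170, an exchange factor for BiP, and its brighter probe gave 0.02 ± 0.13. Its other probe read 7.27, 7.31 and 7.19 in control and 7.34, 7.51 and 7.49 in 7l arrays, without overlap but also without passing (0.19; limma adjusted p over all probes = 0.389). Over the 9 chaperone genes the median change was 0.02, with 5 positive and 4 negative values.

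Among the folding enzymes and lectins, P4HB, a protein disulfide isomerase, measured 9.47, 9.83 and 9.82 in control and 9.98, 9.84 and 10.10 in 7l arrays. The groups did not overlap but nearly met. The change was 0.27 ± 0.14 (SE; limma adjusted p = 0.345, or adjusted p = 0.0300 with the trended prior). PDIA4 and PDIA6, of the same enzyme family, changed by 0.07 ± 0.16 and -0.13 ± 0.09, and CALR and CANX, the lectins that hold newly made glycoproteins, by -0.05 ± 0.10 and -0.19 ± 0.13, all with overlapping groups. The second CANX probe gave -0.05. PDIA3, the disulfide isomerase that works with both lectins, lay under the filter. It read 1.71, 0.00 and 0.00 in control and 1.15, 2.69 and 0.37 in 7l arrays, at background on 5 of the 6. A probe at background gives only an upper bound on what it measures. The 5 tested genes had a median of -0.05, with 2 positive and 3 negative.

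Of 8 tested ERAD genes, 7 had positive changes and 5 had all treated arrays above all control arrays, beside 15.1% of all genes tested, with a median of 0.23, and 0 passed with the default prior. At an unadjusted p under 0.05 by limma 5 were higher, beside 1327 of all 12334 genes. The trended prior called 4 higher, beside 7.21% of all genes. OS9 encodes a lectin that hands misfolded glycoproteins to the ERAD ubiquitin ligase. It measured 4.85, 3.65 and 4.42 in control and 5.25, 5.74 and 5.03 in 7l arrays. The control arrays spread widely, but none reached the lowest treated array. The change of 1.04 ± 0.36 (SE; 2.05-fold, 95% interval 0.12 to 1.96) did not pass (limma adjusted p = 0.204, or adjusted p = 0.00505 with the trended prior). With 16 added to each intensity before log2, it was 0.65, and it was 0.71 without control replicate 2, its lowest control array. This replicate also has the lowest value of EIF2AK3.

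EDEM1 and EDEM2 encode mannosidase-like proteins that trim the glycans of misfolded proteins and so mark them for removal. EDEM2 measured 6.31, 6.17 and 6.05 in control and 6.73, 6.64 and 6.46 in 7l arrays. Every treated array was higher, with a change of 0.43 ± 0.11 (SE; 1.35-fold, limma adjusted p = 0.121, or adjusted p = 0.0147 with the trended prior). EDEM1 measured 7.00, 7.17 and 7.01 in control and 7.49, 7.25 and 7.37 in 7l arrays, a change of 0.31 ± 0.10 without overlap (limma adjusted p = 0.170, or adjusted p = 0.0304 with the trended prior). For EDEM3, of the same family, the brightest probe changed by 0.00 ± 0.18 with overlapping groups. Its 95% interval from -0.46 to 0.47 holds the changes of EDEM1 and EDEM2, and its other probes lay at background on 5 and on 6 of the 6 arrays.

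SYVN1 encodes HRD1, the ubiquitin ligase of ERAD. Its brighter probe read 7.89, 8.02 and 8.04 in control and 8.19, 8.26 and 8.19 in 7l arrays, a change of 0.23 ± 0.07 (SE; limma adjusted p = 0.182). Its dimmer probe read 3.46, 3.75 and 4.03 in control and 4.64, 4.32 and 4.80 in 7l arrays, a change of 0.84 ± 0.20 (limma adjusted p over all probes = 0.159). On both probes all treated arrays were higher, beside 24.9% of all probes without overlap in either direction. The sizes were unlike, and the mean of both gave 0.54. SEL1L, the partner that links SYVN1 to its substrates, lay under the filter, at 1.06, 0.81 and 1.82 in control and 0.79, 3.21 and 2.41 in 7l arrays.

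The derlins form part of the channel through which substrates leave the ER. DERL1 measured 9.05, 9.10 and 9.17 in control and 9.44, 9.25 and 9.31 in 7l arrays, a change of 0.23 ± 0.08 (SE) with no overlap (limma adjusted p = 0.213, or adjusted p = 0.0355 with the trended prior). DERL2 measured 7.03, 7.27 and 7.03 in control and 7.24, 7.29 and 7.26 in 7l arrays, which overlapped (0.15 ± 0.09, limma adjusted p = 0.420). DERL3 went the other way and was dim. Its brighter probe read 2.89, 3.19 and 2.52 in control and 2.47, 2.91 and 1.59 in 7l arrays, with overlap (-0.54 ± 0.38, limma adjusted p = 0.490). Its other probe, under the filter and so not tested, read 3.13, 2.49 and 2.91 in control and 0.65, 0.00 and 0.00 in 7l arrays. All treated arrays of that probe were at background and 2 of 3 control arrays were above it, by little, so no size of change is read from it. With the probes averaged, limma called DERL3 lower (-1.58, adjusted p = 0.0470), a value that rests on arrays at the floor.

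**Figure D2:**
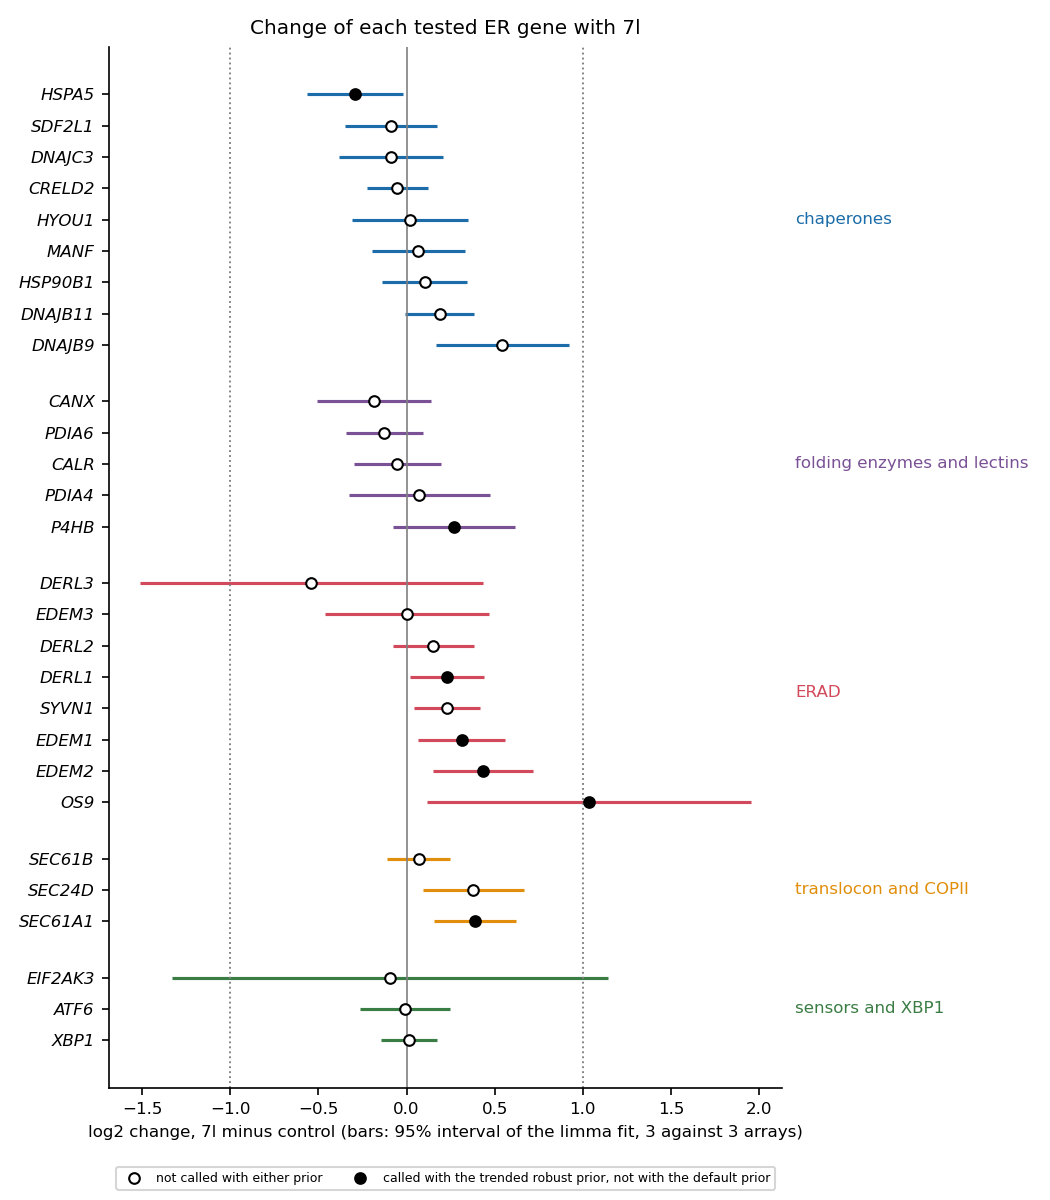
The log2 change with 7l (horizontal axis) is shown for each tested ER gene, by role, with its 95% interval from limma (3 against 3 arrays); dotted lines mark a change of -1 and 1. Filled points, 7 in all, were called with the trended and robust prior, and no gene was called with the default prior; the interval of OS9 runs from 0.12 to 1.96.

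In translocation and export, SEC61A1, the pore subunit of the channel, had the smallest p of the 28 genes. It measured 10.46, 10.66 and 10.70 in control and 11.06, 10.96 and 10.96 in 7l arrays. All treated arrays were higher, and the change was 0.39 ± 0.09 (SE; 1.31-fold, 95% interval 0.15 to 0.62; limma adjusted p = 0.103, or adjusted p = 6.12e-05 with the trended prior). SEC61B, a small subunit of the same channel, measured 10.90, 10.84 and 10.88 in control and 10.93, 11.02 and 10.88 in 7l arrays, with overlap and a change of 0.07 ± 0.07. SEC24D, a cargo-binding coat subunit of the COPII vesicles that leave the ER, measured 5.03, 4.94 and 5.03 in control and 5.23, 5.32 and 5.59 in 7l arrays. The groups did not overlap, and the change of 0.38 ± 0.11 did not pass (limma adjusted p = 0.157, and adjusted p = 0.209 with the trended prior).

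The sensors and XBP1 showed no separation of the groups. ATF6 measured 8.73, 8.53 and 8.83 in control and 8.75, 8.64 and 8.68 in 7l arrays (-0.01 ± 0.10 SE, limma adjusted p = 0.977). EIF2AK3 measured 4.14, 2.58 and 4.25 in control and 3.73, 3.66 and 3.31 in 7l arrays (-0.09 ± 0.49, adjusted p = 0.940), with an interval from -1.33 to 1.15 that covers more than a doubling either way. ERN1 lay at background on all arrays, at 0.00, 1.73 and 0.00 in control and 0.00 on every treated array, so nothing is read from it. XBP1 measured 11.42, 11.47 and 11.41 in control and 11.48, 11.43 and 11.43 in 7l arrays, a change of 0.01 ± 0.06 (95% interval -0.14 to 0.17). Its second probe gave -0.03. The 2 probes read the amount of XBP1 mRNA, and splicing by IRE1, like the cleavage of ATF6 and the phosphorylation of PERK, was not measured.

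The changes are also given by promoter element. This split was made after the values were seen, no test is given, and the ranges overlap. The 9 genes with an element (HSPA5, HSP90B1, HYOU1, SDF2L1, CRELD2, CALR, CANX, PDIA6 and XBP1) had a median change of -0.05 and ranged from -0.29 to 0.10, with 3 positive and 6 negative. By the brightest probe of each gene, all treated arrays were higher in 0 of them, although they were higher on the other HYOU1 probe. The 16 tested genes with a window but neither element had a median of 0.17 and ranged from -0.09 to 1.04, with 13 positive and 3 negative, and 8 of them had all treated arrays higher, beside 15.1% of all genes tested. Of these 16, 7 lay within the range of the 9 genes with an element. No gene of either group passed with the default prior. The genes with an element are chaperones, folding enzymes, lectins and XBP1, whereas the tested ERAD and SEC61 genes with a window hold neither element. Chaperone and folding enzyme genes also stand among those without, namely DNAJB9, DNAJB11, DNAJC3, MANF, PDIA4 and P4HB. The groups therefore differ by role too, though only in part, and the part of element or role was not tested.

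**Figure D3:**
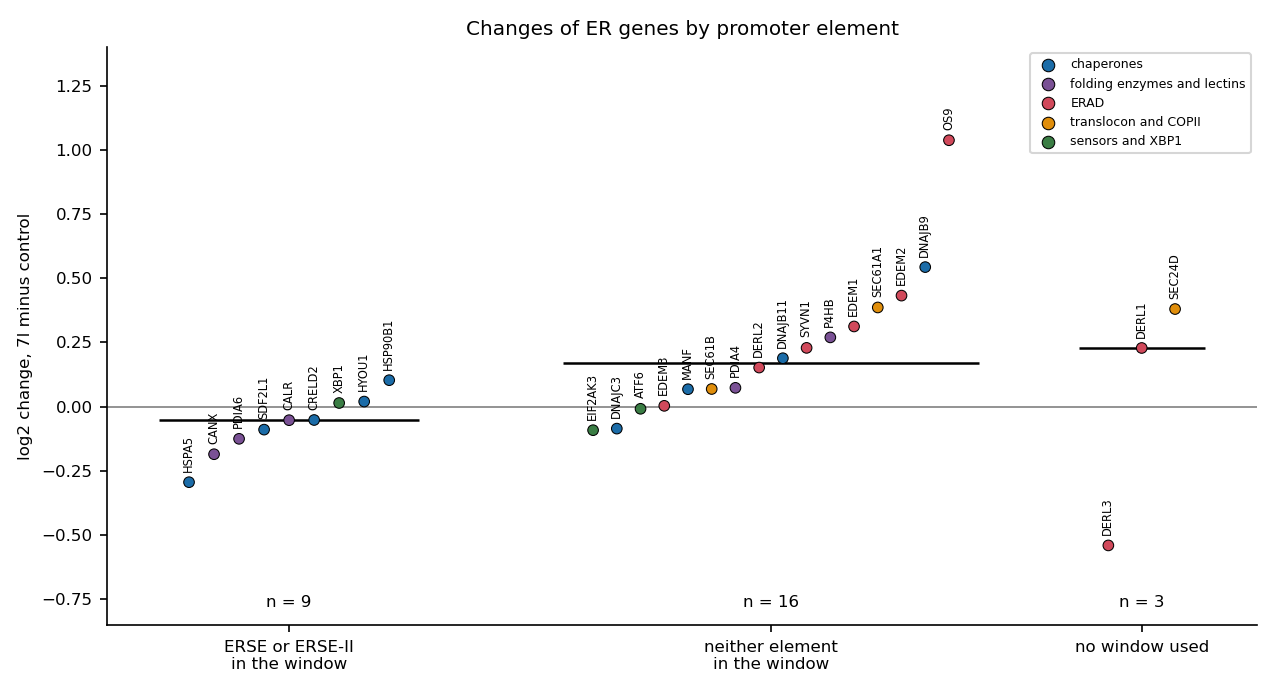
The log2 change with 7l (vertical axis) is shown for the 28 tested ER genes, split by whether the promoter window holds an ERSE or ERSE-II; points are genes coloured by role and lines are medians. The 9 genes with an element lie between -0.29 and 0.10 and the 16 without between -0.09 and 1.04, and 7 of the 16 lie in the range of the 9.

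Of 75 other genes of the pathway, 71 had a probe and 68 were tested, and limma with the default prior called 0 higher and 0 lower. At an unadjusted p under 0.05, 18 were higher and 2 lower, beside 1327 higher and 1199 lower of all 12334 genes. The trended prior called 14 higher and 1 lower, beside 7.21% and 6.59% of all genes. Their median change was 0.13. The PERK and ATF4 arm stood highest among the 6 lists, with a median of 0.47 over 7 tested genes, all positive. Of these 7, 0 passed and 3 were called higher with the trended prior, and DDIT3 and PPP1R15B lay at background on 2 arrays each. ATF4, the factor translated when PERK or related kinases act, measured 11.30, 11.39 and 11.53 in control and 11.85, 11.89 and 11.86 in 7l arrays. This is a change of 0.46 ± 0.08 (SE; 1.38-fold) with no overlap (limma adjusted p = 0.0624, or adjusted p = 7.06e-07 with the trended prior).

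PPP1R15A, encoding GADD34, which reverses the block on translation, measured 8.71, 8.84 and 8.67 in control and 9.29, 9.20 and 9.13 in 7l arrays (0.47 ± 0.08, limma adjusted p = 0.0622, or adjusted p = 1.82e-05 with the trended prior). DDIT3, encoding the stress factor CHOP, measured 3.48, 2.41 and 2.47 in control and 4.42, 3.98 and 3.17 in 7l arrays, with overlap (1.07 ± 0.44, limma adjusted p = 0.264). The control values of 2.41 and 2.47 lay at background, so the size of the DDIT3 change is uncertain. TRIB3, a pseudokinase gene induced by CHOP, changed by 0.00 ± 0.23 with overlap, and CHAC1, an ATF4 target, sat at the floor on all arrays. HERPUD1 was not analysed here. CEBPB, a transcription factor gene picked for mention once its values were known, had the smallest adjusted p of the 68 (0.51 ± 0.08, limma adjusted p = 0.0515). ATF4 and PPP1R15A passed under 4 of the other settings, the offset of 16, the filter or the floor at the background level, and the trended prior. CEBPB passed under these 4 and also with no filter and with array weights. Over all genes, 385, 270, 256 and 889 were called higher under the 4 settings in that order, against 150 in the main fit. The count was 232 of 20046 with no filter and 172 with array weights.

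In the other lists, the medians were -0.03 for ATF6 and IRE1 processing (7 tested genes), -0.02 for folding and glycan control (16), 0.17 for ERAD (14), 0.13 for translocon and signal peptidase (13) and 0.15 for COPII (11). All treated arrays lay above all control arrays in 4 of 7 genes of the PERK and ATF4 arm, 1 of 7 of ATF6 and IRE1 processing, 3 of 16 of folding and glycan control, 7 of 14 of ERAD, 4 of 13 of translocon and signal peptidase and 4 of 11 of COPII, beside 15.1% of all genes tested. They lay below in 2 genes of folding and glycan control and 1 of ERAD, beside 13.8% of all genes. GANAB, a glucosidase subunit that trims new glycans, measured 0.41 ± 0.07 (limma adjusted p = 0.0592) and PREB, which activates the COPII coat, 0.51 ± 0.10 (adjusted p = 0.0731), both named after their values were seen. Both passed with the offset of 16 and with the trended prior. GANAB also passed with no filter and with the filter or the floor at the background level. Counts over all genes under these settings are those given after ATF4, PPP1R15A and CEBPB.

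**Figure D4:**
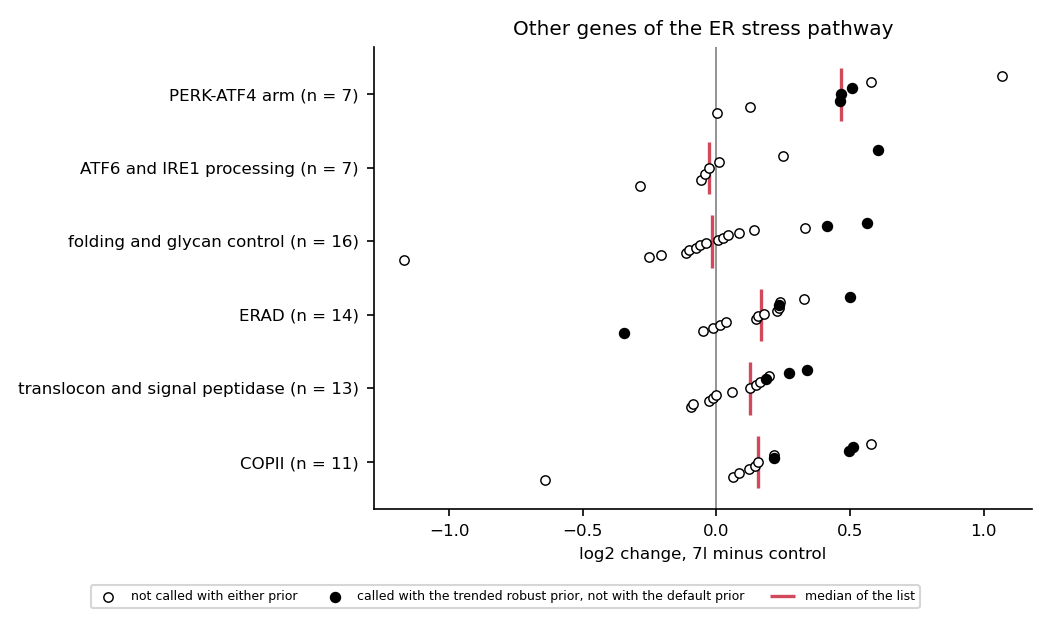
The log2 change with 7l (horizontal axis) is shown for the 68 other tested genes of the pathway in 6 lists; filled points were called with the trended and robust prior, open points were not, and red lines are medians. The list of the PERK and ATF4 arm has the highest median, 0.47, and no gene was called with the default prior.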

How the data were processed

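Per the labels' protocols, RNA of the 3 control and 3 7l samples was taken up in Trizol, treated with DNase on a column and labelled as biotin cRNA. Groups and replicate numbers came from the sample titles. The authors deposited probe intensity on a linear scale with a lowest value of 1, and at 97.8% of ranks all arrays hold the same value to within 0.0001 of it, so a global shift cannot be seen. The software behind the intensity table is not given in the sources used here.

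Intensities were log2 transformed, with 1 as the lowest value. A platform table gives 1 symbol for 30113 probes, several for 8 and none for 17201. The test was run in limma 3.58.1 under R 4.3.3 (lmFit, eBayes, group as the only term, two-sided, Benjamini-Hochberg), with 4 residual and 1.24 prior degrees of freedom (37.0 in the median with the trended and robust prior). The background level is the 95th percentile of 582 probe means for taste and olfactory receptors and keratin-associated proteins. The test was tried on simulated data. Figures used Python 3.11.15 and matplotlib 3.10.9.

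Values on every array are given for the 12 tested genes with the smallest p, HSPA5, XBP1, ATF6, ERN1, EIF2AK3 and genes at background, with others where probes or pairs are compared. The genes and lists were chosen with earlier results of these data known. Alternatives were 2 normalizations, an offset of 16, 2 filters, averaged probes, another prior, array weights, the replicate block, raised low values and each array left out.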

Additional observations from a re-analysis of the deposited data

How the results depend on the processing

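The count of 0 ER genes called held under all alternatives but 2, the trended and robust prior (6 higher, 1 lower) and the mean of all probes (1 lower, DERL3). Among the alternatives, quantile normalization could hardly differ from the main fit, because the arrays already held the same value at 97.8% of ranks. It called the same 150 and 143 genes, so its result adds nothing. Over the arrays left out in turn, 0 to 0 ER genes were called in each direction, but so few genes were called then in the whole table (6 to 15 higher, 0 to 18 lower, against 150 and 143) that this says little. The median change of the 28 genes ran from 0.0199 to 0.104 over these. The count of other pathway genes called higher was 5 with an offset of 16 and 2 with no filter. It was 4 with the filter at the background level, 14 with the trended and robust prior (1 lower) and 1 with array weights. With values raised to the background level it was 4. Over all genes, 385 of 12334 were called higher with the offset, 232 of 20046 with no filter and 270 of 10876 with the background filter. The trended prior called 889 of 12334 higher, array weights 172 and raised values 256, against 150 in the main fit. The titles share replicate numbers, but same-numbered deviations did not correlate (-0.0234 to 0.00432). Whether same-numbered arrays were prepared together cannot be told from so few values. With the replicate block 0 ER genes were called, as were 0 genes in the whole table. Signs turned for XBP1 with centred arrays (-0.00687) and with averaged probes (-0.00854). With 1 array left out, the change ran from -0.000336 to 0.0311 for XBP1, from -0.091 to 0.0587 for ATF6 and from -0.63 (without control replicate 2) to 0.206 for EIF2AK3. The causes were not tested. Only 3 arrays a group and dim probes (PDIA3, SEL1L, ERN1, DERL3, EIF2AK3) limit what can be detected.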
